A study of Mus musculus with 157 samples.

Results

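The proteasome subunit genes of the mouse were described in blood-forming and blood cells. They were taken as every row whose symbol was Psm followed by a letter from a to g and a number, which gave 48 of the 36102 gene symbols of the atlas table. By known role they fall into 7 alpha ring genes of the core particle, the testis alpha gene Psma8, 4 structural and 3 catalytic beta ring genes, 3 inducible catalytic genes of the immunoproteasome, the thymic catalytic gene Psmb11, 6 ATPases and 11 other subunits of the 19S cap, 3 cap chaperones, 4 alternative caps, the regulator Psmf1 and 4 chaperones of the core particle. Genes that serve the proteasome under other symbols, such as Adrm1, Sem1 and Pomp, were described as a list of 20 partners.

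The series holds 157 samples. Libraries labelled Mettl3 knockout or wild type were made from 7 types (MkP, MEP, GMP, CMP, MPP, ST.HSC and LT.HSC), as input and as IP with an antibody against N6-methyladenosine (m6A), with 2 libraries per genotype, type and kind. Libraries labelled Igf2bp2 knockout or wild type came from LT.HSC, with 2 per genotype. Mettl3 writes m6A on RNA and Igf2bp2 is a reader of it. The wild-type, untreated atlas covered 16 types with 2 IP and 2 input libraries each, and 2 experiments with 4-thiouridine gave the share of T-to-C reads in RNA, one after 3 h of labelling in 6 types and one over a uridine chase of up to 24 h in LT.HSC and MkP. The labels give no promoter or recombinase for the knockouts, no age and no strain, and they tie no replicate to an animal. The p-values therefore reflect the spread between libraries of the same group alone, and part of that spread may be technical. Where a comparison takes in several types, the spread among those types does not enter its p-value.

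The proteasome is the protease that degrades proteins tagged with ubiquitin. Its core particle is a barrel of alpha and beta rings, in which Psmb5, Psmb6 and Psmb7 hold the constitutive active sites, and the 19S cap binds ubiquitin chains, unfolds the substrate with its ring of ATPases and opens the barrel. In cells exposed to interferon gamma, Psmb8, Psmb9 and Psmb10 replace Psmb5, Psmb6 and Psmb7 in new particles, and the peptides made serve display on MHC class I. Leukocytes are known to carry such immunoproteasomes without stimulation.

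Promoters are printed for the genes on which the results turn: Psmb8, Psmb9 and Psme1, which interferon is known to induce, the constitutive Psmb5 and Psmb6, the cap genes Psmc6 and Psmd13, and the nuclear cap gene Psme3. They are RefSeq sequences of GRCm38.p6 from 250 bases before to 50 bases after the annotated start, written 5′ to 3′ on the strand of the gene. Capitals mark matches, on either strand, to GAAA, any 2 bases and GAAA (the core of the interferon-stimulated response element) or TTCNNNGAA (the core of a STAT site) in Psmb8, Psmb9 and Psme1, to TGACNNNGC (the core of the antioxidant response element) in Psmb5, Psmb6 and Psmc6, and to CCGGAAG (the core of an ETS site) in Psmc6, Psmd13 and Psme3.
Psmb8 (chr17:34197945-34198244, plus strand): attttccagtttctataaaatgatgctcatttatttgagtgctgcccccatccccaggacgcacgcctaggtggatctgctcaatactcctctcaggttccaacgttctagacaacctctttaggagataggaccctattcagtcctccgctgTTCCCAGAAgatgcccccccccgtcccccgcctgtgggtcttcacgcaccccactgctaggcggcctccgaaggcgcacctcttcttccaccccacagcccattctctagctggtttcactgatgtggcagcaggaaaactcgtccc
Psmb9 (chr17:34187281-34187580, minus strand): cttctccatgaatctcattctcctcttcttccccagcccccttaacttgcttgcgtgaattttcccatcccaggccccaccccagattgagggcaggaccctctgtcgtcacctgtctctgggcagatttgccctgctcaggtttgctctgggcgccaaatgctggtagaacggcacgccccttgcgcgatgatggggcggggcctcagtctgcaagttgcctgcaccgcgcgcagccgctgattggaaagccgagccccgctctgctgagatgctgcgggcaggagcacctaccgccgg
Psme1 (chr14:55578244-55578543, plus strand): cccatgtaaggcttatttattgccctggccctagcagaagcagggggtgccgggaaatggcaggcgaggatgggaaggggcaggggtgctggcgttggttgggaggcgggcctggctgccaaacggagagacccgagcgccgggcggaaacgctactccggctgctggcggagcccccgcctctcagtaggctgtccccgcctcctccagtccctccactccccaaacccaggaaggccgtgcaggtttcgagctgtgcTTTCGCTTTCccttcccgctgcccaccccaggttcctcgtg
Psmb5 (chr14:54617946-54618245, minus strand): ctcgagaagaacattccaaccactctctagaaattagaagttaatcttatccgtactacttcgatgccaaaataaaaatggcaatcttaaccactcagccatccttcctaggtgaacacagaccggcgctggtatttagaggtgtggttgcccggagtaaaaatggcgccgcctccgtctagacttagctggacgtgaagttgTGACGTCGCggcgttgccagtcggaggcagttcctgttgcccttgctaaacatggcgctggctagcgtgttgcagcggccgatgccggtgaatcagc
Psmb6 (chr11:70525107-70525406, plus strand): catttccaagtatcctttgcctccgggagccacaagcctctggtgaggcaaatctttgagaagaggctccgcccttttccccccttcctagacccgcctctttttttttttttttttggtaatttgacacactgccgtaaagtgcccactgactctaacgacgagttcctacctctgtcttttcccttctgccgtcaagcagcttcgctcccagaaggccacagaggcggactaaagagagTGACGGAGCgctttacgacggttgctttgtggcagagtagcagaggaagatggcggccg
Psmc6 (chr14:45329574-45329873, plus strand): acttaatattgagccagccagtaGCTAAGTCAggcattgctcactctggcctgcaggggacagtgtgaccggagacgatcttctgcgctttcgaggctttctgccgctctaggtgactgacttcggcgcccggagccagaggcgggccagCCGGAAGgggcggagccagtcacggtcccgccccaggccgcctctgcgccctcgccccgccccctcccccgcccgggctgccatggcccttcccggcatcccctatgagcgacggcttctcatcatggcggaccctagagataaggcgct
Psmd13 (chr7:140882144-140882443, plus strand): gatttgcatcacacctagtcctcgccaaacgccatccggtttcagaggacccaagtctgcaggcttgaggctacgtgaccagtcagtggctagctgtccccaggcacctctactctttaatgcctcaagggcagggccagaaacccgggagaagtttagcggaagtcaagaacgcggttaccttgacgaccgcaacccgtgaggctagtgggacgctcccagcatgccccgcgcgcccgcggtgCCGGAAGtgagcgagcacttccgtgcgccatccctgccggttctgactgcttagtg
Psme3 (chr11:101315963-101316262, plus strand): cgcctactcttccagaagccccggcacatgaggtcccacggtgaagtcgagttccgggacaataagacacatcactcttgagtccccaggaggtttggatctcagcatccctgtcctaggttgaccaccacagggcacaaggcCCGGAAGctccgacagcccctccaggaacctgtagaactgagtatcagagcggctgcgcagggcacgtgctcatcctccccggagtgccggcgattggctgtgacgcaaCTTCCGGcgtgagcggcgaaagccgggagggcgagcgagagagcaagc

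A promoter was found for 40 of the 48 genes. CCGGAAG was the motif that stood furthest from all promoters: it was in 14 of the 40 windows (35.0%), against 9.93% of the 27025 windows of all genes. Of the cap genes with a window 9 of 14 held it (Psmc1, Psmc2, Psmc6, Psmd2, Psmd4, Psmd6, Psmd11, Psmd12 and Psmd13), against 1 of 11 constitutive core genes (Psma6). GGGCGG, the GC box, was in 57.5% of the proteasome windows and 38.2% of all windows. The motif of GAAA, any 2 bases and GAAA was in 5 of 40 windows (12.5%, against 3.99% of all), among them Psme1, where it began 9 bases after the start. TTCNNNGAA was in 3 windows (7.5%, against 9.55%), one of them Psmb8, 97 bases before its start. The window of Psmb9 held neither interferon motif. TGACNNNGC was in 15% and 14%, and CCAAT in 35.0% and 41.1%. These are counts of letters in the windows and were not tested.

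Neighbouring genes share some of this sequence. Psmb9 and Tap1, a subunit of the peptide transporter of MHC class I display, lie head to head on chromosome 17 with 225 bases between them, so that their windows share 275 bases on opposite strands. Psmb8 lies 10864 bases from Psmb9. On chromosome 14, Psme1 and Psme2 are 5912 bases apart and Psmb5 and Psmb11 7314 bases apart.

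The atlas inputs held 8.23 to 21.5 M reads (median 14.5 M) and the atlas IP libraries 10.8 to 24.6 M (median 16.9 M). The Mettl3 inputs held 3.42 to 20.2 M, the Mettl3 IP libraries 0.819 to 22.9 M and the Igf2bp2 libraries 4.68 to 20 M. The 48 genes took a median of 1.44% of atlas input reads. All 44 markers chosen for the 16 types were at 10 or above in their type, and in 10 types every one ranked among the 3 highest types. The types where this failed were MPP, LMPP, CLP, CMP, CD4 and CD8. Flt3 and Dntt, chosen for LMPP, were highest in MPP (Dntt 11717.5, against 8725 in LMPP). Siglech, chosen for DC, was highest in CLP (16980, against 5900 in DC). MPP, LMPP, CLP and CMP are therefore not set apart by these markers, and their names below are those of the labels. Other exceptions touch mature types. The libraries labelled CD4 held 12002 and 11930 of Cd8a and 7.77 and 13.7 of Cd4, and those labelled CD8 held 80.3 and 30.9 of Cd8a and 1510 and 1482 of Cd4. S100a8, Ltf and Camp, the markers chosen for Neutrophil, were highest in the libraries labelled Monocyte. CD4, CD8, Monocyte and Neutrophil are therefore likewise names of labels here, and all 4 lie in the group of mature leukocytes. In bulk samples fewer cells of a type and less RNA per cell cannot be told apart.

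Levels are the deposited normalised counts, compared only within a gene, since no gene lengths were used. All 48 genes differed among the 16 types in a limma F test on log2(value + 1) with Benjamini-Hochberg adjustment over 17165 genes, as did 92.6% of all genes tested. LT.HSC held the lowest mean of 21 genes and DC of 10. Erythroid held the highest mean of 14 genes, 11 of them in the cap or its chaperones, and GMP of 13. The span between the highest and the lowest type was under 10-fold in the 14 constitutive core and 17 cap genes, with the widest in Psma1 (9.19-fold, Monocyte over LT.HSC) and Psmc6 (8.78-fold, Erythroid over LT.HSC). It was 102-fold in Psme3 and 40.1-fold in Psmb8. These spans rest on the deposited scaling. In it 1 read counted as 7.97 and 11.6 in Monocyte, 2.22 and 2.63 in Erythroid and 0.461 and 0.412 in LT.HSC. As a share of reads, the 48 genes took 0.299% and 0.299% in Monocyte and 0.639% and 0.560% in Erythroid. In LT.HSC they took 1.42% and 1.14%. The 10 genes with the most reads took 52.8% and 54.1% in Monocyte and 52.2% and 58.8% in Erythroid.

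The core and the cap followed different orders of types. Set against each gene's own mean over the 16 types on the log2 scale, the 14 constitutive core genes had a median of −1.12 in LT.HSC and −0.94 in DC and of 0.84 in Monocyte and 0.81 in GMP. The 17 cap genes had a median of −0.83 in LT.HSC and of 1.07 in Erythroid, 0.92 in MEP and 0.81 in GMP. In B_cell the core genes stood at 0.49 and the cap genes at −0.48. The immunoproteasome genes had another order, with −3.0 in Erythroid and −1.68 in MEP and with 1.04 in B_cell and 0.93 in GMP. For all genes tested these medians lay between −0.36 (MkP) and 0.18 (DC).

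**Figure D1:**
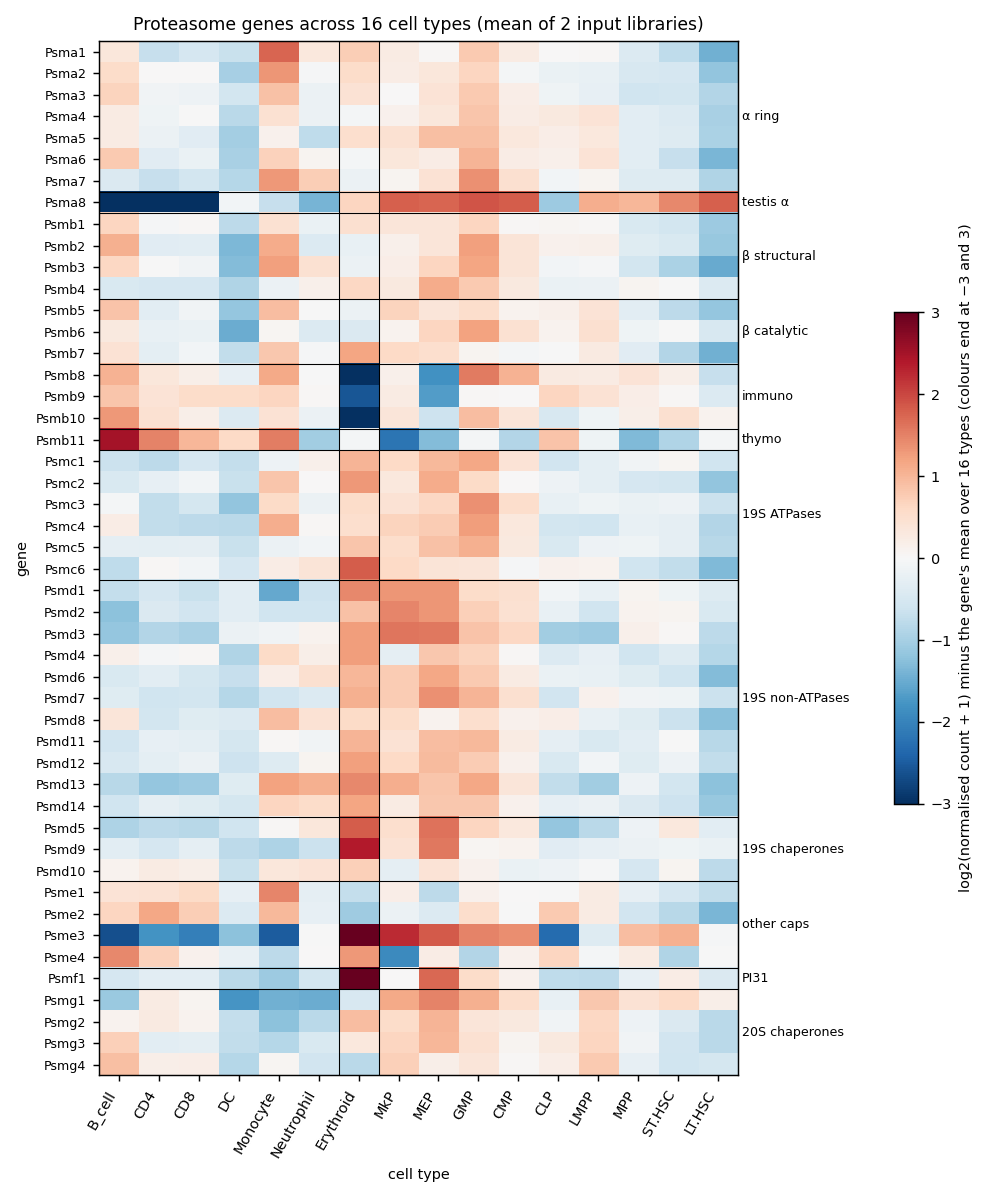
Level of each of the 48 proteasome genes (rows, grouped by role) in each of 16 cell types (columns), as log2(normalised count + 1), mean of 2 input libraries, minus the gene's mean over the 16 types. The constitutive core rows are lowest in LT.HSC or DC, 8 of the 17 cap rows are highest in Erythroid and 4 in GMP, and Psmb8, Psmb9 and Psmb10 are lowest in Erythroid.

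Across the 16 type means, genes of one assembly moved together. The median Pearson correlation between pairs was 0.79 among the 14 core genes (0.37 to 0.95) and 0.78 among the 17 cap genes (0.19 to 0.95). It was 0.59 between core and cap genes and 0.88 among Psmb8, Psmb9 and Psmb10, against 0.05 between core and immunoproteasome genes. Among the 4 alternative caps it was −0.19, with pairs from −0.67 to 0.83. These values describe 16 types whose genes share the same libraries and scaling.

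Erythroid and MEP libraries were lowest in the inducible catalytic genes. Psmb8, which takes the place of Psmb5, had 970 and 838 in Erythroid and 4209 and 2767 in MEP, against 51478 and 21035 in GMP. Every other type had at least 5877 in each library. Psmb9, which takes the place of Psmb6, had 479 and 440 in Erythroid and 890 and 807 in MEP, and the highest mean was in B_cell (3208 and 6539). Psmb10, which takes the place of Psmb7, had 405 and 398 in Erythroid and 2130 and 2055 in MEP. The highest mean was again in B_cell (4634 and 11248). Its range overlaps that of GMP (8025 and 4246), so the top of that order is not resolved, and for Psmb9 B_cell likewise overlaps Monocyte (3553 and 4978).

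Counted against the constitutive partner, the same types stood out. The log2 ratio of Psmb8 over Psmb5 was −1.65 in Erythroid and −0.27 in MEP, and between 1.44 (MkP) and 2.92 (ST.HSC) in the other 14 types. Psmb10 over Psmb7 was −2.98 in Erythroid, 0.07 in MEP and up to 2.75 in LT.HSC. Psmb9 over Psmb6 was −4.17 in MEP, −3.96 in Erythroid and −2.98 in GMP, and highest in DC (0.19). ST.HSC ranked 1 and LT.HSC 7 of the 16 types for Psmb8 over Psmb5. For Psmb10 over Psmb7 they ranked 2 and 1, and for Psmb9 over Psmb6 they ranked 12 and 11. Ratios between genes also carry the unknown lengths of the 2 genes, so only their change between types is used.

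**Figure D2:**
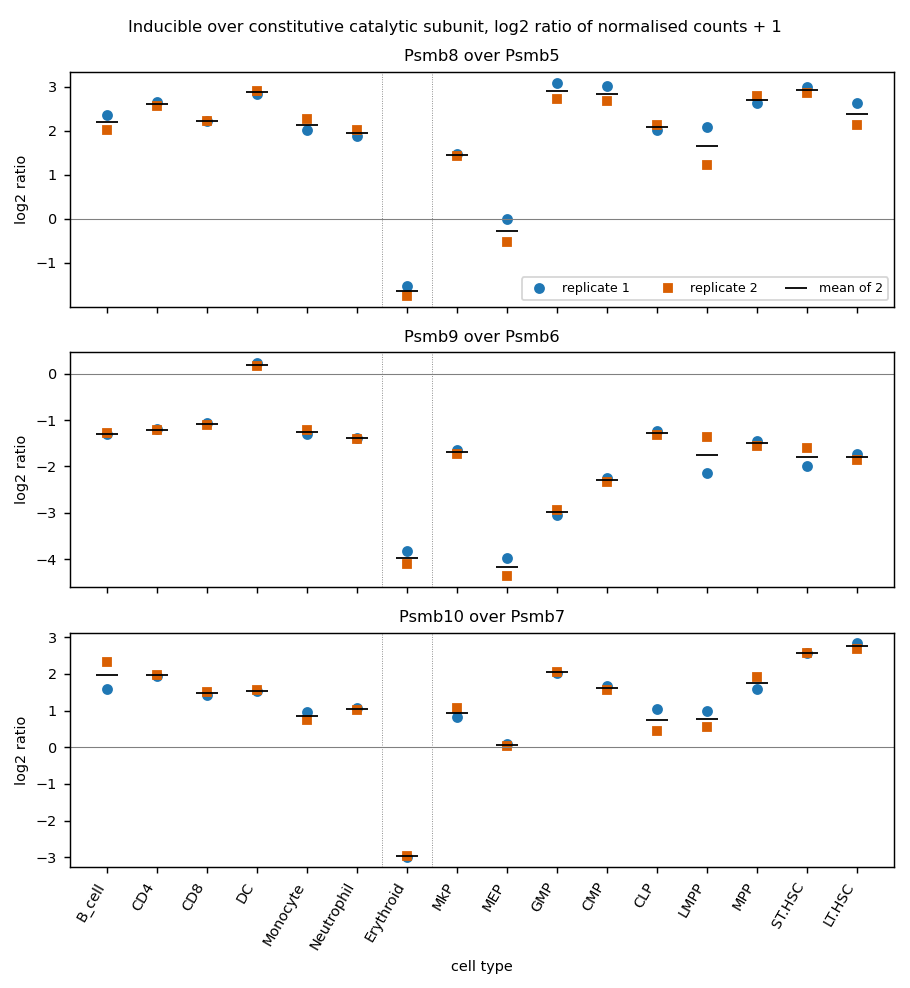
Log2 ratio of each inducible over its constitutive catalytic gene (vertical axis, normalised counts + 1) in 16 cell types (horizontal axis), with 2 input libraries per type as points and their mean as a bar. Erythroid is lowest for Psmb8 over Psmb5 (−1.65) and Psmb10 over Psmb7 (−2.98), and MEP for Psmb9 over Psmb6 (−4.17).

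The constitutive catalytic genes varied less. Psmb5 had 5711 and 6411 in Monocyte, its highest type, and 1467 and 1357 in DC, its lowest mean, which overlaps 1504 and 1349 in LT.HSC. Its B_cell libraries (3639 and 7946) span those of Monocyte. Psmb6 had 29536 and 15294 in GMP and 3454 and 3485 in DC, its highest and lowest types. Psmb7 was highest in Erythroid (3226 and 3120) and lowest in LT.HSC (524 and 500). Near copies named Psmb5-ps, Psmb6-ps and Psmb7-ps2 are in the table, and reads could be split between copy and gene.

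Among the alternative caps Psme3 varied widely, while the highest type was 4.78-fold above the lowest for Psme1, 5.79-fold for Psme2 and 10.4-fold for Psme4. Psme3, which forms the nuclear PA28 gamma cap, had 13387 and 10643 in Erythroid and 4929 and 2059 in MkP, against 141 and 93.8 in B_cell and 135 and 127 in Monocyte. Its libraries were far apart in several progenitors (989 and 3151 in GMP, 730 and 3175 in CMP, 976 and 157 in LMPP), so the order among those types is not resolved. Psme4, the nuclear PA200 activator, had 399 and 393 in B_cell, 399 and 324 in Erythroid and 34.5 and 41.5 in MkP. Psme1 and Psme2, which form the PA28 cap induced by interferon gamma, were highest in Monocyte (10578 and 12960 for Psme1) and in the libraries labelled CD4 (12131 and 12530 for Psme2). Psme2 has a near copy, Psme2b, in the table, with which reads could be split. Psmf1, which binds the core particle as PI31, had 11484 and 11423 in Erythroid and 3962 and 4009 in MEP, and at most 2092 in any library of the other 14 types.

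The tissue-restricted subunits were low. Psma8, known from spermatocytes, had 34.7 to 118 in stem and myeloid progenitor libraries, LMPP and MkP included. It had 10.5 and 9.87 in CLP, and 0 to 2.81 in the 6 libraries of B_cell, CD4 and CD8, where it rested on 0 to 3 reads. Psmb11, known from thymic epithelium, had 202 and 119 in B_cell and 6.18 and 4.37 in MkP.

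LT.HSC libraries were compared with the other 15 types, since these are the long-term stem cells. Most proteasome genes were lower in LT.HSC: 31 fell and 1, Psma8, rose by the same limma fit, where 17.7% of all genes tested fell and 22.6% rose. Of the core genes 12 of 14 fell and of the cap genes 14 of 17, but none of the 3 immunoproteasome genes did (Psmb8 −0.74 ± 0.36, adjusted p = 0.10). The median log2 difference was −0.86 over the 48 genes and 0.17 over all genes.

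Psmb3, a structural beta subunit, had 3494 and 3338 in LT.HSC, against 3957 to 31011 (median 9719) in the 30 other libraries. Its log2 difference was −1.58 ± 0.35 (SE, adjusted p = 9.4e-04). Psmb7 had 524 and 500, against 717 to 3226 (median 1488), with −1.52 ± 0.25 (adjusted p = 5.2e-05). For both genes the groups do not overlap, nor do they for Psma1 (−1.52 ± 0.31) and Psme2 (−1.46 ± 0.33, limma adjusted p = 1.3e-03). The same held for Psma6 (−1.44 ± 0.28), Psmd8 (−1.36 ± 0.23) and Psmb1 (2753 and 1903, against at least 2815). The share of all genes without overlap was not counted, so the lack of overlap is not read as particular to these genes. Other falls were those of Psmd6 (−1.53 ± 0.27), Psmc6 (−1.38 ± 0.29), Psmb5 (−1.21 ± 0.27) and Psme1 (−0.77 ± 0.24). Psma8 had 118 and 44.5 in LT.HSC, against 0 to 98.3 (median 34.5), with a difference of 1.80 ± 0.47 (adjusted p = 3.8e-03). The groups overlap, and without the first LT.HSC library its difference was 1.11 (adjusted p = 0.20). Without the second LT.HSC library 8 genes fell in place of 31, and Psmd6, Psme1 and Psme2 lost their calls. Psme1 was not called without the first either. Among the 19 partners tested 9 fell, Ubqln1 (−1.82), Sem1 (−1.51) and Adrm1 (−1.30) among them, and 2 rose, Nfe2l1 (1.14), a transcription factor of proteasome genes, and Ecpas (0.67).

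MkP and LT.HSC were compared as the pair of types used in the chase. In MkP, megakaryocyte progenitors, 33 of the 48 genes rose and 2 fell, where 20% of all genes tested rose and 32.1% fell. The median log2 difference was 1.31 over the 48 genes and −0.41 over all genes. The rise took in 16 of 17 cap genes, 10 of 14 core genes and all 4 chaperones of the core particle, and 0 of 3 immunoproteasome genes. Both MkP libraries lay above both LT.HSC libraries in 41 of the 48 genes and below them in 2. Of all 17165 genes tested, 4806 lay above and 7436 below in this way.

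Psmd3, a lid subunit of the cap, had 3386 and 4412 in MkP, against 740 and 739 in LT.HSC. The difference was 2.38 ± 0.31 (SE, limma adjusted p = 2.0e-06), the widest of the 48. Psmd13, also of the lid, had 3303 and 4752 against 907 and 710 (2.30 ± 0.44, adjusted p = 1.9e-04). Psmc6, an ATPase, had 1529 and 1783 against 490 and 386 (1.92 ± 0.40). In each of these genes the lower MkP library was above 3 times the higher LT.HSC library. Psmd6 (2.21), Psmb7 (1.99), Psmd2 (1.90), Psmd8 (1.81) and Psmb5 (1.76) rose likewise. Psme3 rose by 2.15 ± 0.72 (adjusted p = 0.016), and its call was lost without LT.HSC 1 or MkP 1. Psme1 (0.91) and Psme2 (1.14) rose too. Both lost their calls without LT.HSC 2 or MkP 2, and Psme1 also without LT.HSC 1. Psmb11 fell to 6.18 and 4.37, against 28.6 and 24.3 (−2.14 ± 0.52, adjusted p = 1.7e-03). Psme4 fell to 34.5 and 41.5, against 81.6 and 208 (−1.76 ± 0.43, adjusted p = 1.7e-03), and was not called without LT.HSC 2. Leaving out LT.HSC 2 left 20 rises. Pf4, a megakaryocyte marker, was at 16351 and 76286 in the MkP libraries, and its part in the result was not tested. Of the 19 partners 9 rose, Rad23b (2.53), Ubqln1 (2.41), Usp14 (1.94) and Adrm1 (1.89) among them, and 4 fell, among them Ddi2 (−2.87), the protease that activates Nfe2l1, and Nfe2l1 itself (−1.08).

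**Figure D3:**
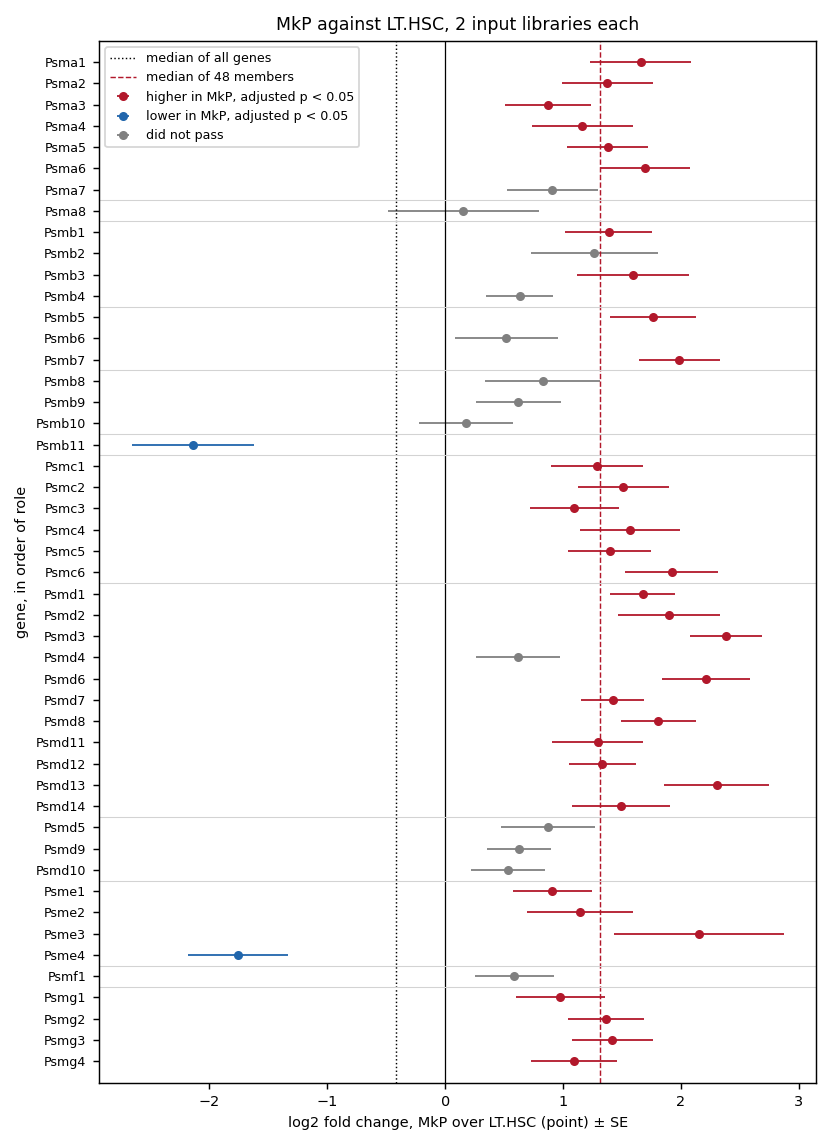
Log2 fold change of MkP over LT.HSC (horizontal axis, limma estimate ± SE, 2 input libraries per type) for the 48 proteasome genes (vertical axis, by role), coloured by the limma call. The median of the 48 genes is 1.31, the median of all genes is −0.41, and Psmb11 and Psme4 lie below 0.

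Erythroid and MEP were compared as a step of red cell maturation, in which much of the cell's protein is degraded. Psme3, Psmf1, Psmc6, Psme4 and Psmd9 were higher in Erythroid, and Psmb10, Psmg1, Psmb8 and Psmg4 were lower. These are 5 and 4 of the 48 genes, where 20.6% of all genes tested rose and 13.1% fell. None of the 14 constitutive core genes passed in either direction.

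Psmb10 had 405 and 398 in Erythroid, against 2130 and 2055 in MEP (−2.38 ± 0.40, SE, limma adjusted p = 5.9e-05). Psmb8 fell by 1.92 ± 0.49 (adjusted p = 3.8e-03), and Psmb9 had −0.88 ± 0.36 (adjusted p = 0.061). Psmg1, a chaperone of alpha ring assembly, had 518 and 685 against 2240 and 2464 (−1.98 ± 0.38). Psmg4, another such chaperone, fell by 1.01 ± 0.37 (adjusted p = 0.037). Psmf1 rose by 1.52 ± 0.34 (adjusted p = 1.1e-03), with 11484 and 11423 against 3962 and 4009. Psmc6 had 4059 and 3634 against 1603 and 1252 (1.44 ± 0.40). Psmd9, a chaperone of the cap ATPases, rose by 0.79 ± 0.27. Psme3 rose by 2.28 ± 0.72 (adjusted p = 0.017), with 13387 and 10643 against 1672 and 3605, and Psme4 by 1.15 ± 0.43 (adjusted p = 0.040). The calls of Psme3, Psme4, Psmc6, Psmb8 and Psmg4 depended on single libraries: Psme3 was not called without Erythroid 1, Erythroid 2 or MEP 1, Psme4 without Erythroid 1, Erythroid 2 or MEP 2, Psmg4 without any of the 4 libraries, Psmc6 without Erythroid 1 or MEP 2, and Psmb8 without MEP 1 (adjusted p = 0.056). Leaving out 1 library at a time gave 1 to 5 rises and 2 to 6 falls. With TMM scaling 3 rose and 7 fell, and with edgeR on recovered reads 3 rose and 9 fell. Psme4 was not called by limma with TMM (adjusted p = 0.076) or with no filter (adjusted p = 0.060). Nor was it called by edgeR on recovered reads (adjusted p = 0.16). Psmg4 was not called by limma with no filter (adjusted p = 0.064). Over all genes the share of calls that were rises was 61.1%, against 52.5% with TMM and 49.3% with edgeR.

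Lists of related genes were read beside the inducible subunits, and a link between them was not tested. Among 10 interferon response genes 9 were higher in Erythroid (median 4.55, Isg15 7.46), while Psmb8 and Psmb10 were lower. Of 11 genes of MHC class I processing 2 rose, Irf1 (1.06) among them, and Tap1 (−2.23), which shares its promoter region with Psmb9, and Tap2 (−1.73) fell. Of the 19 partners 5 rose and 1 fell, with Zfand5 at 2.22 and Nfe2l1 at −1.16.

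Mature leukocytes (12 libraries of B_cell, CD4, CD8, DC, Monocyte and Neutrophil) were compared with stem and progenitor cells (18 libraries of 9 types). Psmb9, Psme1 and Psme2, which interferon is known to induce, were slightly higher in the mature cells and 9 cap genes lower. In all, 6 of the 48 rose and 20 fell, where 39.5% of all genes tested rose and 30.4% fell. Median log2 differences were −0.12 and 0.18. Of the 17 cap genes 9 fell and 0 rose, and of the 14 core genes 3 fell and 1 rose.

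Psmb9 ran from 2759 to 6539 (median 3639) in mature libraries and from 807 to 4556 (median 2836) in stem and progenitor libraries. It rose by 0.57 ± 0.13 (SE, limma adjusted p = 6.5e-04). Psme1 (0.61 ± 0.12) and Psme2 (0.70 ± 0.17) rose as well, while Psmb8 (0.30 ± 0.18, adjusted p = 0.14) and Psmb10 (0.18 ± 0.15, adjusted p = 0.29) did not pass. The groups overlap for each of these genes. Psmb11 rose by 1.66 ± 0.19, from 7.25 to 202 in mature and 4.37 to 56.5 in stem and progenitor libraries, and Psme4 by 0.52 ± 0.16, which was not called by edgeR on recovered reads (0.37, adjusted p = 0.066). In the other direction Psma8 ran from 0 to 25.1 (median 5.03) in mature and from 9.87 to 118 (median 63.7) in stem and progenitor libraries (−3.37 ± 0.24, limma adjusted p = 1.6e-11). Its values in the Monocyte libraries rest on 2 and 1 reads. Psme3 ran from 93.8 to 848 (median 203) and from 142 to 4929 (median 983), with −2.21 ± 0.27. Psmg1 (−1.60 ± 0.14) and the cap scaffold genes Psmd1 (−1.04 ± 0.10) and Psmd2 (−0.97 ± 0.16) fell, as did Psmd7, Psmd3, Psmd9 and Psmb6 (−0.80 to −0.57). For Psmd1, 14 of the 18 stem and progenitor libraries lay above every mature library. All 11 genes of MHC class I processing passed, 8 higher (median of the list 0.99, B2m 1.71) and 3 lower (Tap1 −0.66, Tap2 −0.92, Erap1 −0.96). Of 10 interferon response genes 8 rose and 1 fell, and of the 19 partners 4 rose and 8 fell.

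In the m6A IP the proteasome genes were depleted relative to other genes. Enrichment is log2 of the IP level minus log2 of the input level in the same type, after TMM scaling within each table; since the tables were scaled separately, its 0 has no absolute meaning. The median enrichment of the 48 genes lay between −1.08 (B_cell) and 0.02 (Neutrophil), and that of all 19829 genes between 0 and 0.74. In each type 27 to 45 of the 48 genes (median 41) were below the all-gene median. Genes with a mean input level of at least 1000, 2468 in number, had medians between −0.70 (DC) and about 0 (MkP), and the median of the 48 genes was below theirs in 15 of 16 types, Neutrophil being the exception. The 48 genes took a smaller share of reads in the IP than in the input library of the same type and number in 31 of 32 cases.

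By the median over types, the depletion was deepest in the cap. Its ATPases had a median enrichment of −1.11 and its other subunits −0.94. The cap chaperones had −0.85, the immunoproteasome −0.81, the alpha ring −0.36 and the structural beta ring 0.00. The order was not the same in every type. In LT.HSC, LMPP, B_cell and CD8 the immunoproteasome lay below both cap groups (−2.54 in B_cell, against −1.30 and −0.84). The lowest means over the 16 types were those of Psmd4 (−2.06), a ubiquitin receptor, Psmd13 (−2.01) and the cap chaperone Psmd5 (−1.84). Psme4 stood at the other end, with a mean of 2.40 and a range from 1.18 to 3.58, above the all-gene median in 16 of 16 types. Psmg4 (1.18), Psmb11 (0.71) and Psmd1 (0.66) followed.

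**Figure D4:**
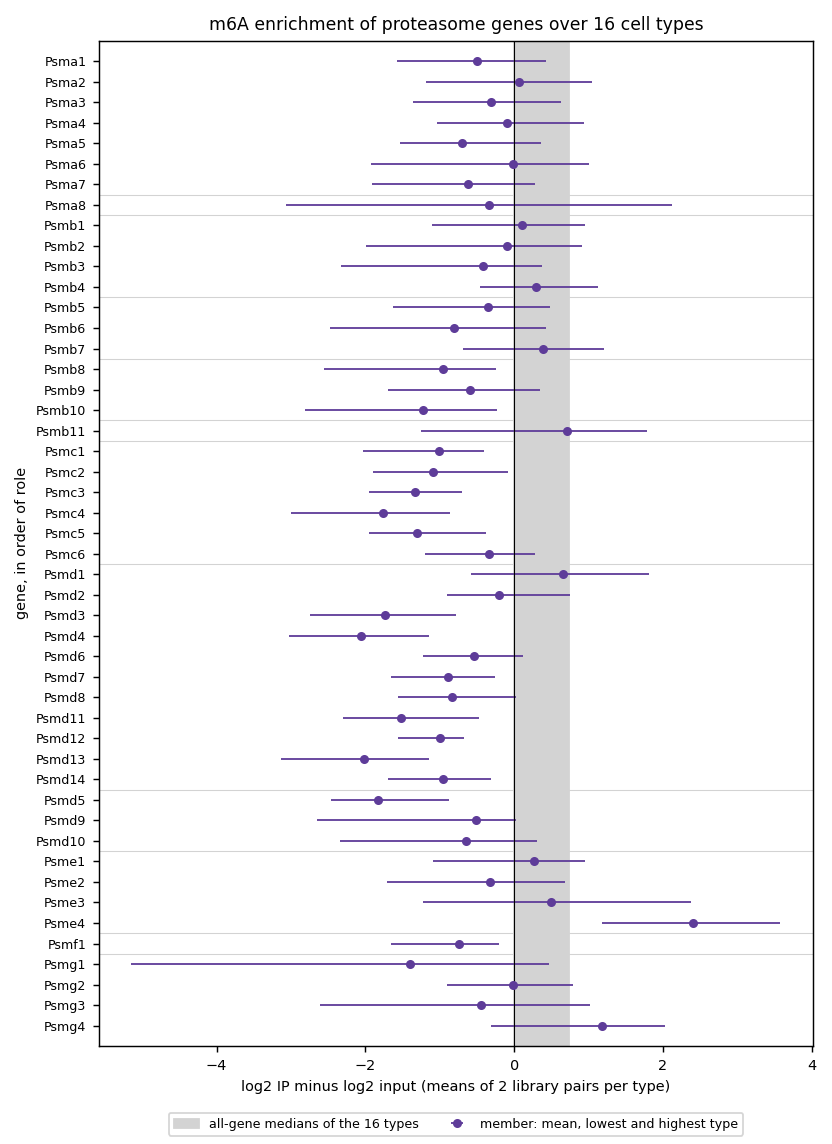
m6A enrichment (horizontal axis, log2 IP minus log2 input) of the 48 proteasome genes (vertical axis, by role). Points are means over 16 types, lines run from the lowest to the highest type, and the grey band spans the all-gene medians of the types (0 to 0.74). Psme4 is highest (2.40) and Psmd4 lowest (−2.06).

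Enrichment differed among the 16 types in 14 of the 48 genes by the limma F test of the kind by type interaction, where 22.6% of all genes tested did. In mature leukocytes against stem and progenitor cells, Psme3 rose (1.74 ± 0.32, SE, limma adjusted p = 4.3e-04) and Psme1 (−0.63 ± 0.15), Psmb7 (−0.79 ± 0.23) and Psmb8 (−0.62 ± 0.19, adjusted p = 0.042) fell, where 2.05% of all genes tested rose and 4.91% fell. Psme3 enrichment was 1.93 to 2.80 in the libraries of B_cell, CD4 and CD8 and −2.11 to −0.36 in LT.HSC. As type means it was 2.01 in Monocyte, 0.33 in DC and 0.06 in Neutrophil. Among progenitors it was 1.90 in CLP and 1.16 in LMPP, and negative in the other stem and progenitor types. The rise of Psme3 thus did not hold for every mature type against every progenitor type. The same input libraries gave the falls of its input level and enter the enrichment with the opposite sign, so these values are not independent. Psmb7 lost its call without IP B_cell 2, IP Monocyte 2, IP ST.HSC 2, input Monocyte 2 or input MkP 1. The call of Psmb8 was lost in 39 of 64 fits with 1 library left out, with no filter and with median ratio scaling.

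In LT.HSC against the other 15 types Psmg3 (−2.28 ± 0.53, adjusted p = 4.7e-03), Psmd10 (−1.81 ± 0.44) and Psmb10 (−1.69 ± 0.44) fell and none rose, where 7.19% of all genes tested fell and 2.07% rose. The LT.HSC pairs differed: Psmd10 had −3.73 and −0.96, against −2.19 to 0.39 (median −0.41) in the 30 pairs of the other types. Psmg3 had −3.18 and −2.0, against −3.38 to 1.32, and Psmb10 −3.13 and −2.50, against −3.69 to 0.09. Each gene had at least 1 LT.HSC pair within the range of the other types. Without the first LT.HSC IP library 1 gene fell, without the second 7 rose and 7 fell, without the first LT.HSC input library 1 fell, and without the second none did.

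The Mettl3 RNA level did not separate the genotype labels. It was 274 to 931 (median 489) in the 14 input libraries labelled knockout and 127 to 5370 (median 428) in the 14 labelled wild type, with the highest value in wild-type LT.HSC 1. Genotype is therefore named below as the libraries are labelled.

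Averaged over the 7 types, Psma8 fell and Psmb8 rose in the libraries labelled Mettl3 knockout. These are 1 rise and 1 fall among 48 genes, where 7.24% of all 15030 genes tested rose and 2.89% fell. The fall of Psma8 was already known when the members were chosen, so its p-value and refits below are no independent test. Psma8 averaged 27.2 ± 32.9 in libraries labelled knockout and 117 ± 55.9 in those labelled wild type (SD, n = 14 each), with ranges of 0 to 133 and 16.5 to 256. The log2 difference was −2.58 ± 0.50 (SE, limma adjusted p = 1.9e-03). By type, it had 20.1 and 16.0 in knockout LT.HSC against 16.5 and 198 in wild type, 0 and 38.6 against 116 and 256 in ST.HSC, and 10.6 and 15.7 against 108 and 121 in MPP. In CMP the values were 5.64 and 43.6 against 93.1 and 102, in GMP 37.8 and 15.2 against 113 and 119, in MEP 19.7 and 133 against 58.2 and 123, and in MkP 16.8 and 7.98 against 110 and 110. Both knockout libraries lay below both wild-type libraries in 5 of 7 types, LT.HSC and MEP being the exceptions. The lowest wild-type value, in LT.HSC 1, rests on 9 reads.

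Psmb8 averaged 11363 ± 5713 in libraries labelled knockout and 6454 ± 3307 in those labelled wild type (SD, n = 14 each). The log2 difference was 0.87 ± 0.21 (limma adjusted p = 8.4e-03). Both knockout libraries lay above both wild-type libraries in 4 of 7 types. In LT.HSC they had 8003 and 20463 against 3409 and 4840, and in MEP 3971 and 6280 against 2036 and 1246. In ST.HSC, CMP and GMP the libraries overlap. Psmb9 had 0.46 ± 0.16 (adjusted p = 0.080). Both calls held in each of 28 fits with 1 library left out (Psma8 −2.96 to −2.20, Psmb8 0.78 to 0.97) and without the wild-type LT.HSC 1 and ST.HSC 1 and knockout MEP 1 libraries (−2.72 and 0.86, adjusted p = 0.0027 and 0.029). When the 7 types were averaged per genotype and replicate number, leaving 2 values against 2, neither passed (adjusted p = 0.18 and 0.37).

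**Figure D5:**
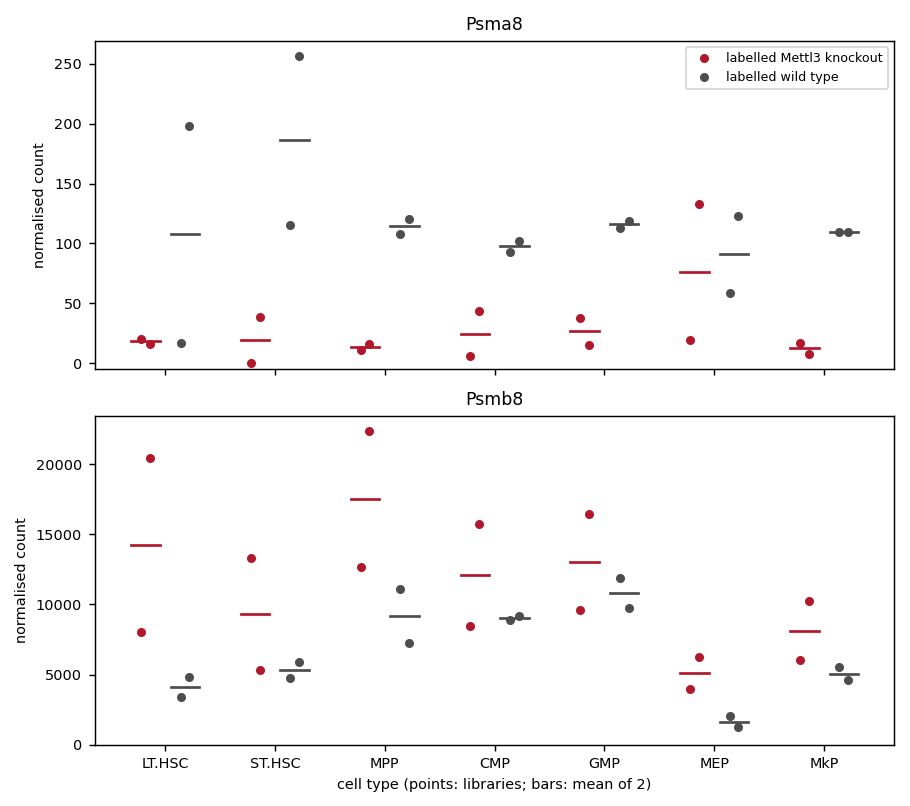
Normalised counts (vertical axes) of Psma8 and Psmb8 in input libraries labelled Mettl3 knockout (red) and wild type (grey) in 7 cell types (horizontal axis), with 2 libraries each as points and their mean as a bar. Psma8 means are lower in knockout in 7 of 7 types, and Psmb8 knockout libraries lie above both wild-type libraries in 4 of 7.

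Lists of related genes were read beside Psmb8, and a link to it was not tested. Of 10 interferon response genes 4 rose (Rtp4 1.13, Ifit3 1.08, Isg15 1.03 and Usp18 0.92), and 4 of 11 genes of MHC class I processing rose. The summed level of the 3 DC markers was 16.8 to 8048 (median 383) in libraries labelled knockout and 34.0 to 934 (median 229) in those labelled wild type, and that of the 3 Neutrophil markers 68.4 to 14514 (median 647) and 29.4 to 4605 (median 240). In DC markers both knockout libraries lay above both wild-type libraries in 3 of 7 types and below them in 1. None of the DC or Neutrophil markers had a median of 0, and their part in the result was not tested. The 3 B_cell markers had medians of 12.8 and 16.1, and Cd3e had a median of 0. Of the 19 partners 2 fell, Ngly1 (−0.84) among them, and none rose.

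No gene of the 48 differed in its genotype effect among types by the limma interaction F test, where 0.0133% of all genes tested did, and 0 of the 48 had an unadjusted p under 0.05. Within single types none of the 48 passed by limma. Over all genes 2.14% rose and 0.00665% fell in MEP, 0.399% rose and 0.140% fell in LT.HSC and 0.0998% rose and 0.0133% fell in MkP. In CMP 0.00665% rose, in ST.HSC and MPP 0.0133% each, and none fell in these types, while none passed in GMP. Among the 48 genes, at an unadjusted p under 0.05, 4 had a positive and 2 a negative difference in LT.HSC, 2 a positive one in MEP, 2 a negative one in MkP and 1 each a negative one in ST.HSC and MPP. Over all genes the shares at that p were 9.61% positive and 7.29% negative in LT.HSC, 6.95% positive in MEP, 3.07% negative in MkP, 6.49% negative in ST.HSC and 5.03% negative in MPP. Among the IP libraries 2 stood apart: 10 genes took 94.2% of reads in wild-type LT.HSC 1 and 75.8% in wild-type ST.HSC 1, against 5.44% to 13.3% in the 26 others, and the 48 genes took 0.0155% and 0.00939%, against 0.833% to 1.89%. With all IP libraries none passed by edgeR's quasi-likelihood test, where 0.590% of all 17463 genes tested rose and 0.160% fell, and at an unadjusted p under 0.05 the difference was positive in 1 and negative in 4 of the 48, where it was in 7.89% and 3.21% of all genes. Without those libraries and knockout IP MEP 1 none of the 48 passed either (Psma8 −2.44 ± 0.89, adjusted p = 0.21), where 220 of 19973 genes did. Psma8 had the lowest p (−2.77 ± 0.86, adjusted p = 0.12). It averaged 1.96 ± 3.30 CPM in knockout and 7.38 ± 8.74 in wild-type IP libraries (SD, n = 14 each), and DESeq2 and the unfiltered fit called its fall (adjusted p = 0.010 and 0.014). Enrichment in libraries labelled knockout against wild type passed in 0 of 48 genes and 0% of all genes tested by limma, and at an unadjusted p under 0.05 it was above 0 in none and below 0 in 6, where 2.39% and 2.12% of all genes were. Those 6 were Psmd3 (−1.47 ± 0.54), Psmd13, Psmd4, Psmc2, Psmc3 and Psmc1 (−0.95 to −0.73), each with an adjusted p of 0.98. Without the libraries that stand apart and knockout MEP 1, input and IP, 0 of the 48 and 0 of 17784 genes passed. In that fit 5 of the 48 were below 0 at an unadjusted p under 0.05, where 1.49% of all genes were.

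Igf2bp2 itself had 13 and 12.5 CPM in the LT.HSC libraries labelled knockout and 7.11 and 53.5 in those labelled wild type, so its level did not separate the labels either. Of the 47 proteasome genes tested none passed by edgeR's quasi-likelihood test, as was the case for 0% of all 12221 genes tested. DESeq2 also called none of the 48, while it called 85 genes higher and 66 lower among 18546. At an unadjusted p under 0.05, edgeR gave 4 positive and 0 negative differences among the 47 genes, where 2.53% of all genes had a positive and 3.88% a negative one. The differences leaned one way: 42 were above 0 and 5 below, with a median log2 difference of 0.60, against 0.00 over all genes. Both knockout libraries were above both wild-type libraries in 13 of 48 genes, where 9.36% of all genes were, and below them in 4, where 29.9% were. Psmb2, a structural beta subunit, had 381 and 360 CPM in knockout and 175 and 194 in wild-type libraries (1.39 ± 0.43, adjusted p = 0.65). Psme2 had 362 and 210 against 158 and 152 (1.32 ± 0.52, adjusted p = 0.74). Psmb8 had 300.3 and 286 against 315 and 115, so its groups overlap. Psma8 had 3 and 1 reads in knockout and 4 and 37 reads in wild-type libraries and was not tested.

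After 3 h of labelling, the T-to-C share is higher in genes with more new RNA. Over 47 genes with enough values the median was 0.808%, against 0.998% for 13909 genes. Psmb8 had one of the low shares among its family, 0.0253% to 0.492% (median 0.223%), and was below the all-gene median in 12 of 12 libraries, as were Psma7, Psmb3, Psmb6, Psme1 and Psmg1. The 3 immunoproteasome genes had a median of 0.310%, against 1.15% for the cap subunits other than ATPases. Psme4 (0.665% to 4.17%, median 2.22%), Psma3 (0.961% to 3.70%) and Psmd11 (0.477% to 3.28%) were above the all-gene median in all 12. Depth behind these ratios is unknown. None of the 47 genes differed among the 6 types by limma (1 at an unadjusted p under 0.05), as was the case for 0% of all genes tested. In MPP, CMP, GMP and MEP against LT.HSC and ST.HSC none passed by limma, where 0.0216% rose and 0.00719% fell, and at an unadjusted p under 0.05 the difference was positive in 4 and negative in 0 of the 47, where it was in 11.6% and 1.29% of all genes. In GMP 2 the all-gene median was 0.309%, below that of each other library. Without it Psme4 (1.48), Psmd10 (1.92) and Psma3 (0.97) rose, but the share of all genes that rose in that fit is not given here. These rises are therefore not read as particular to the proteasome genes.

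The chase values are averages without replicates and are given as a description. In MkP the median share of the proteasome genes was 0.137% at 0.5 h (46 genes), 0.115% at 1 h, 0.0904% at 3 h, 0.0190% at 6 h, 0.0138% at 9 h, 0.0641% at 12 h (30 genes) and 0.0135% at 24 h. All genes had 0.0697%, 0.0526%, 0.0446%, 0.0165%, 0.0157%, 0.0282% and 0.0158% at the same times. The proteasome genes were above the all-gene median at 0.5 h, 1 h, 3 h, 6 h and 12 h. They were below it at 9 h and 24 h. The genes with a value differed between times, so no rate of decay is read from these medians. Psmb8 had 0.167% at 0.5 h and 0.0247% at 24 h. In LT.HSC only 15 to 41 of the genes had a value at a given time, and their medians followed no single order (0.154% at 0.5 h, 0.0133% at 9 h and 0.124% at 24 h, against 0.0561%, 0.0212% and 0.0919% for all genes).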

How the data were processed

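The atlas and Mettl3 inputs are normalised counts (signal) as the authors deposited them; in all of them the low values were whole multiples of 1 read within a tolerance of 0.1, so 100% of values gave whole reads. The IP tables hold the deposited estimated counts, rounded here for count tests. The Igf2bp2 table holds deposited counts, and the labelling tables hold the deposited fraction of T-to-C reads, as ratios with neither depth nor a stated denominator. The submitters' processing notes name kallisto, Trimmomatic, fastp and the build GRCm38, with no roles or versions.

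Inputs were tested with limma 3.58.1 (R 4.3.3, mean-variance trend) on log2(value + 1), for genes that reached 10 in 2 or more libraries. A mean was fitted per group, with a spread common to the whole table. Fold changes are on that scale, which understates those of low genes. IP and Igf2bp2 counts were tested with edgeR 4.0.16 (quasi-likelihood, TMM, filterByExpr), with DESeq2 1.42.0 as an alternative. For inputs edgeR on recovered reads was an alternative. Enrichment was tested as a kind by type interaction in limma. T-to-C values were turned into percent and tested as log2(percent + 0.1) where 6 or more libraries were above 0. Tests were two-sided, adjusted by Benjamini-Hochberg over all genes tested, at a threshold of 0.05, and tested on simulated data first.

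All 48 genes passed the input filters, 47 (not Psma8) were tested in the Igf2bp2 set and 47 (not Psmb11) in the new RNA set. Given in full were the catalytic genes, Psma8, Psmb11, Psme1 to Psme4 and up to 8 called genes per comparison with the largest change and a mean of at least 50. Members and lists were chosen with earlier results of these data known, among them the fall of Psma8. Alternatives were another pseudocount, no filter, other scaling, the count test, the replicate block and each library left out. Promoters come from RefSeq. Some genes of the lists are counted but not reported by name here.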

Additional observations from a re-analysis of the deposited data

How the results depend on the processing

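Outside the fits that left out 1 library, 122 counts of called genes kept within 1.5 times their value and 9 moved, and of the named genes 262 values kept their call and 10 lost it; none reversed. For Erythroid against MEP, TMM gave 3 rises and 7 falls and edgeR on recovered reads 3 rises and 9 falls, in place of 5 and 4. The all-gene median moved by −0.169 and −0.173 (log2) there, by −0.103 and −0.144 for mature leukocytes and by 0.155 and 0.153 for MkP against LT.HSC, under TMM and edgeR in that order. For LT.HSC enrichment, median ratio factors gave 1 rise in place of 0. In the Mettl3 inputs, means per genotype and replicate number gave 0 rises and 0 falls in place of 1 and 1, with fewer values tested. In the Mettl3 IP libraries, no filter and DESeq2 each gave 1 fall (Psma8) in place of 0. The cause was not tested in the other cases. With 1 library left out at a time, LT.HSC against the other types gave 0 to 1 rises and 8 to 33 falls, MkP against LT.HSC 20 to 38 and 1 to 2, Erythroid against MEP 1 to 5 and 2 to 6, and mature leukocytes 5 to 7 and 20 to 23. For enrichment the F test gave 8 to 22 genes, LT.HSC 0 to 7 rises and 0 to 7 falls, and mature leukocytes 1 to 3 and 1 to 5. The Mettl3 inputs gave 1 to 2 rises and 1 to 2 falls over types and 0 to 3 falls within types, the Mettl3 IP 0 to 1 falls, and new RNA 0 to 3 rises. The fit with the replicate block gave 32 falls for LT.HSC in place of 31 and 15 genes for the enrichment F test in place of 14, and the same counts elsewhere. Deviations of same-numbered libraries correlated above 0.1 in 14 of 120 cases in the atlas inputs and in 55 of 91 in the Mettl3 inputs (median r 0.14). Since this was not so in every case, the replicate numbers were not taken as pairs, although the Mettl3 inputs may share some replicate effect. Psma8 rests on 0 to 3 reads per B_cell, CD4 and CD8 library and on 2 and 1 reads in the Monocyte libraries. Differences among these types were therefore not detectable at this depth. Reads could be split with near copies for Psme2, Psmb5, Psmb6 and Psmb7.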
